A study of Homo sapiens with 8 samples.

Results

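Plasminogen activation was followed through 7 genes among the 28395 of the deposited table. These were the plasminogen activators PLAU (urokinase) and PLAT (tissue plasminogen activator), the urokinase receptor PLAUR, the protease inhibitors SERPINE2 and SERPINB2, and the secreted serine proteases PRSS23 and HTRA1. The genes were listed by name, and PRSS23 was chosen by its measured normalized counts, which were lower in both lines labelled as knockouts. Its values against the control lines are therefore described and not tested. All 7 were found by Entrez gene identifier. A filter on low values (a normalized count of at least 10 in at least 2 of 8 libraries) was passed by 6 of them, with SERPINB2 left out.

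The samples were 8 RNA-seq libraries, 2 from each of 4 lines derived from A-498 cells. A-498 is an established cell line of human kidney cancer. The study compared cells with and without ANXA4, the gene of a calcium-dependent membrane-binding annexin. Control line 1 and control line 2 had the wild type control genotype and carried non-targeting sgRNA-1 and non-targeting sgRNA-2. The other lines were labelled with the ANXA4 knockout genotype and carried ANXA4 sgRNA-1 (KO-labelled line 1, KO guide 1 in the plots) or ANXA4 sgRNA-2 (KO-labelled line 2, KO guide 2 in the plots). All lines were kept in RPMI 1640 medium with 10% FCS, seeded at equal cell number and harvested 24 h later before the dishes were full. Each guide RNA was present in a single line, so guide and line cannot be told apart, and the labels do not say whether a line was a clone or a pool. Nothing states that the replicates came from separate cultures, so the p-values measure only the spread between these libraries, which may be technical.

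Plasminogen is a circulating zymogen that urokinase and tissue plasminogen activator cut into plasmin, a protease that dissolves fibrin and cleaves matrix proteins. Urokinase works at the cell surface while bound to its receptor, and serpins such as PAI-2 (SERPINB2) and protease nexin-1 (SERPINE2) trap the activators in covalent complexes that endocytic receptors such as LRP1 clear. HTRA1 is a secreted protease that degrades matrix proteins, and PRSS23 belongs to the trypsin fold family of serine proteases.

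The depth was 15784890 to 22631588 reads assigned to genes per library, and replicate 2 was the shallower library in all 4 lines. ANXA4 had 2821 and 3614 normalized counts in control line 1 with 3858 and 6773 in control line 2, next to 235.6 and 234.4 (KO-labelled line 1) and 3433 and 4142 (KO-labelled line 2). Its transcript was thus low in KO-labelled line 1 alone, and in KO-labelled line 2 it lay within the range of the control libraries. Directions given for that line refer to its label. Mitochondrial genes held 4.67% to 6.43% of the reads in the replicate 1 libraries and 6.23% to 13.8% in the replicate 2 libraries. Of the 9 kidney markers checked, 9 passed the filter, with PAX8 at 2987 to 4476 normalized counts. CA9 of this list was low, at 2.07 to 24.8. Of the leukocyte and endothelial markers, 0 passed it, with highest values of 13.3 and 4.53 and with CD3E and CDH5 at 0. Of 4 fibroblast markers, COL1A1 alone passed it, PDGFRA and DCN reached 4.16 and 1.21 normalized counts, and LUM was at 0. The summed list was thus nearly COL1A1 alone. It ran from 548 to 1412 over the control and from 178 to 512 over the KO-labelled libraries. The part of these markers in the results below was not tested, and in bulk libraries fewer cells of a type and less RNA per cell cannot be told apart.

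Per kb of merged exon (GENCODE v29 basic set), the mean normalized count over the 8 libraries was highest for SERPINE2, at 1842 per kb. PLAUR followed with 794 per kb, and PRSS23, HTRA1 and PLAT lay close together at 406, 375 and 343 per kb. PLAU was at 6.02 per kb, so the receptor of urokinase stood far above its ligand.

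The normalized counts of each member in every library, on a log2 scale, are plotted by line and replicate.

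**Figure D1:**
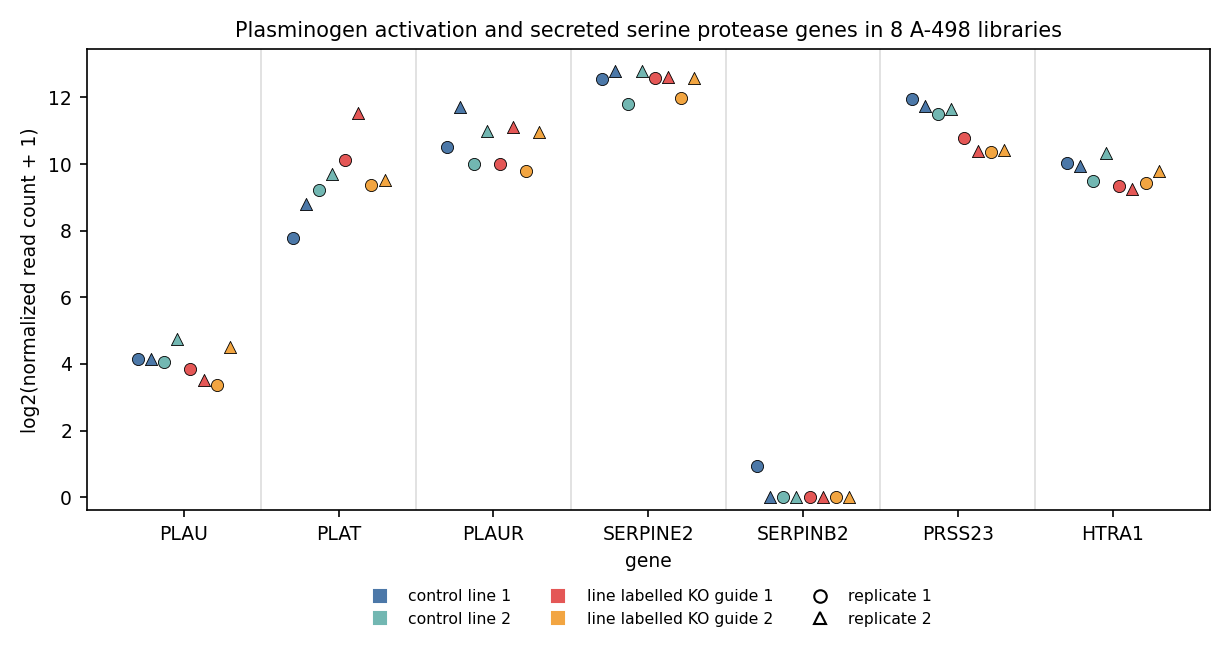
Strip plot of log2(normalized count + 1) for the 7 genes in the 8 libraries, with colour for the line and a circle or triangle for replicate 1 or 2. PRSS23 separates control from KO-labelled libraries (2889 to 3924 against 1312 to 1743 normalized counts), PLAUR separates the replicates within every line, and SERPINB2 lies at or near 0.

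Promoter sequence is shown for 3 members on which the comparisons below turn. PLAUR and SERPINE2 separated the replicates and PRSS23 separated the groups. Windows of 250 bases before an annotated start were taken from RefSeq (GRCh38.p14), where 6 of the 7 members had 9 windows. Each is written 5′ to 3′ on the strand of the gene, and capitals mark matches to any of 4 motifs searched on both strands: AP-1 (TGANTCA), NF-kB (GGGANNNNCC), the GC box (GGGCGG) and the TATA box (TATAAA).
PLAUR (chr19:43670170-43670419, minus strand): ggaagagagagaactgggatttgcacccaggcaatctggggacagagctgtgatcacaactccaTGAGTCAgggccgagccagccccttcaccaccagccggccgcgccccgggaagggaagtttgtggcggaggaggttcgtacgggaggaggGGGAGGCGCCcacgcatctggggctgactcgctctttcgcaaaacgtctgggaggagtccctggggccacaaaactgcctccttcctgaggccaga
SERPINE2 (chr2:224031479-224031728, minus strand): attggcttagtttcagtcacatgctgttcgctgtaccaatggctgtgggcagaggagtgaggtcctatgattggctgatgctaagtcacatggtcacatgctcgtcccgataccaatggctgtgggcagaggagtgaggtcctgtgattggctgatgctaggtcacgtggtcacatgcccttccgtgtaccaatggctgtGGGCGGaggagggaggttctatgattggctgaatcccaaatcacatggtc
PRSS23 (chr11:86800292-86800541, plus strand): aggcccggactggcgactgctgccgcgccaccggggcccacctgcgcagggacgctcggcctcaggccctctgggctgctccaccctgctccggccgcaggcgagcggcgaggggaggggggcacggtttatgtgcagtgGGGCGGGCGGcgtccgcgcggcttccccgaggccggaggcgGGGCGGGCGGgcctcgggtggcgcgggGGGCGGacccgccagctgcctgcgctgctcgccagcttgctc

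The PLAUR window held an AP-1 match 186 bases and an NF-kB match 96 bases before the start, with 63.2% G and C. The SERPINE2 window held 1 GC box, 50 bases before the start, and 53.2% G and C. In the PRSS23 window 5 GC boxes lay 110, 106, 69, 65 and 42 bases before the start, of which those at 110 and 106 overlap, as do those at 69 and 65, and 79.6% of its bases were G or C. A second annotated start of PRSS23 (chr11:86790821-86791070) held 0 matches to the 4 motifs, and one of SERPINE2 (chr2:224038641-224038890) held 2 GC boxes. Of 35116 such windows over all genes, 6.57% held an AP-1 match, 22.6% an NF-kB match, 42.6% a GC box and 10.7% a TATA box, and the median G and C content was 58%. A match of letters is a description and not a site of binding.

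Urokinase, the activator that works at the cell surface, was barely detected. PLAU (Entrez gene 5328, 10:73908832-73917494) had 16.5 and 16.6 normalized counts in control line 1, next to 15.5 and 26.1 in control line 2. KO-labelled line 1 had 13.3 and 10.4, and KO-labelled line 2 had 9.31 and 21.7. The libraries of the arms overlapped, and replicate 2 of control line 2 was the highest. These values came from 9 to 23 reads per library and 129 reads in all, so that a moderate change was not detectable at this depth. The log2 fold change between KO-labelled and control libraries was -0.46 (SE 0.44, 95% interval -1.44 to 0.51, limma adjusted p 0.772). PLAU overlaps C10orf55 in the annotation, which was listed at 0 in all libraries.

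Tissue plasminogen activator behaved differently from line to line. PLAT (Entrez gene 5327, 8:42174718-42207565) had 220.7 and 448 normalized counts in control line 1, next to 601 and 826 in control line 2. The counts were 1116 and 2947 in KO-labelled line 1 and 661 and 738 in KO-labelled line 2. Both libraries of KO-labelled line 1 lay above all others, both of control line 1 lay below all others, and the remaining 4 were mixed. By line, the means were 334 ± 161 in control line 1, 699 ± 54.2 in KO-labelled line 2, 714 ± 159 in control line 2 and 2031 ± 1295 in KO-labelled line 1 (SD, n = 2 each). The neighbours KO-labelled line 2 and control line 2 differed by less than their spread.

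Over the arms, PLAT averaged 524 ± 255 (control) and 1365 ± 1073 (KO-labelled) normalized counts (SD, n = 4 per arm), with a log2 fold change of 1.25 (SE 0.56, 95% interval 0.02 to 2.49, limma adjusted p 0.430). It was called only with a separate mean per line, which leaves out the variation between lines (adjusted p 0.0381). Against both control lines, PLAT rose in KO-labelled line 1 by 1.94 (SE 0.39, 95% interval 1.07 to 2.82, limma adjusted p 0.0233), a 3.84-fold difference. This call was lost without replicate 1 of control line 1 (1.69, adjusted p 0.0590) and without replicate 2 of KO-labelled line 1 (1.24, adjusted p 0.177). In KO-labelled line 2 the difference was 0.57 (SE 0.39, limma adjusted p 0.399). With the replicate number as a block it was called there as well (adjusted p 0.0481).

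The lines of an arm also stood apart in PLAT. Control line 2 minus control line 1 gave 1.16 (SE 0.45, limma adjusted p 0.243), and KO-labelled line 2 minus KO-labelled line 1 gave -1.38 (SE 0.45, 95% interval -2.39 to -0.36, adjusted p 0.102). With the replicate block both were called (0.00598 and 0.00121). The control lines, which carried no knockout, thus differed by about as much as the arms did on the log2 scale. Genes beside PLAT were also higher in control line 2. Among the 5 tested genes on each side, the median of control line 2 minus control line 1 was 0.73, from 0.26 to 1.64. Of these 10, 2 were called, beside 2.13% of all tested genes. The medians of the same 10 genes were 0.44 for KO-labelled line 1 and 0.43 for KO-labelled line 2 against the controls. There 1 and 2 were called, beside 7.01% and 11.2% of all tested genes. Between the KO-labelled lines the median was 0.08. The part of the neighbourhood in the result for PLAT was not tested.

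The urokinase receptor was called between replicates and not between arms. PLAUR (Entrez gene 5329, 19:43646095-43670169) had 1475 and 3331 normalized counts in control line 1, next to 1022 and 2042 in control line 2. KO-labelled line 1 had 1015 and 2200, and KO-labelled line 2 had 894 and 2003. All 4 replicate 2 libraries lay above all 4 replicate 1 libraries, and within a replicate control line 1 was the highest. Replicate 2 over replicate 1 was 2.26, 2.00, 2.17 and 2.24 in control lines 1 and 2 and KO-labelled lines 1 and 2.

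With the line as a term, PLAUR rose in replicate 2 by 1.11 (SE 0.07, 95% interval 0.95 to 1.28, limma adjusted p 2.41e-05), from 1101 ± 256 to 2394 ± 631 (SD, n = 4 each). The call was kept in all 15 alternatives tried. Between KO-labelled and control libraries the log2 fold change was -0.34 (SE 0.51, 95% interval -1.46 to 0.78, limma adjusted p 0.875). That fit had no replicate block, so its interval includes the spread between replicates. With the block PLAUR was not called between the arms either. No comparison of lines was called without the replicate block. With the block, PLAUR was lower in KO-labelled line 2 than in the control lines (-0.42, limma adjusted p 0.00518) and lower in control line 2 than in control line 1 (-0.62, adjusted p 0.00308). The value in KO-labelled line 1 (-0.26) missed the threshold with the block (adjusted p 0.0583).

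Protease nexin-1, an inhibitor of thrombin and of the plasminogen activators, was the most abundant member. SERPINE2 (Entrez gene 5270, 2:223975045-224039286) had 5979 and 7164 normalized counts in control line 1, next to 3602 and 7061 in control line 2. The counts were 6128 and 6226 in KO-labelled line 1 and 4040 and 6201 in KO-labelled line 2. The arms overlapped throughout, whereas every replicate 2 library lay above every replicate 1 library, narrowly so for replicate 1 of KO-labelled line 1. Replicate 2 over replicate 1 was 1.20, 1.96, 1.02 and 1.54 in control lines 1 and 2 and KO-labelled lines 1 and 2.

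SERPINE2 rose in replicate 2 by 0.47 (SE 0.13, 95% interval 0.20 to 0.74, limma adjusted p 0.0255), from 4937 ± 1303 to 6663 ± 521 (SD, n = 4 each). The call rested on control line 2 and KO-labelled line 2, since it was lost without either replicate of control line 2 (0.30, adjusted p 0.160 without replicate 1 and 0.158 without replicate 2) and without either replicate of KO-labelled line 2 (0.42, adjusted p 0.107 in both cases). Between KO-labelled and control libraries the log2 fold change was -0.05 (SE 0.30, 95% interval -0.70 to 0.61, limma adjusted p 0.975). Its sign turned with the left-out library, from -0.28 to 0.11.

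PAI-2, the inhibitor encoded by SERPINB2 (Entrez gene 5055, 18:63887705-63903888), was at the floor of detection. A single read was found in replicate 1 of control line 1, a normalized count of 0.919, and 0 in the other 7 libraries. A count of 0 allows up to 3 reads, which is 2.35 to 3.62 normalized counts depending on the library. No fold is given.

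PRSS23, the member picked for its fall, was the only one whose control and KO-labelled libraries did not overlap. PRSS23 (Entrez gene 11098, 11:86791071-86952910) had 3924 and 3447 normalized counts in control line 1, next to 2889 and 3198 in control line 2. KO-labelled line 1 had 1743 and 1351, and KO-labelled line 2 had 1312 and 1364. The lowest control library was above the highest KO-labelled one, and such separation was found for 10.6% of all tested genes. The mean was 3365 ± 437 (control) and 1442 ± 201 (KO-labelled), SD over 4 libraries per arm, or 2.33-fold lower. The log2 fold change was -1.22. In KO-labelled line 1 the difference from both control lines was -1.12 and in KO-labelled line 2 it was -1.32. No interval is given for these, since it would not account for the choice of PRSS23 by the same values. Of all tested genes, 1.13% were called as lower in both lines, and nothing is read from this since PRSS23 was chosen by it. The value in KO-labelled line 1 was -1.31 without replicate 1 and -0.94 without replicate 2 of that line.

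Within the arms, the log2 difference in PRSS23 was -0.20 for KO-labelled line 2 minus KO-labelled line 1. This is given with no test, since the values of both lines entered the choice. Control line 2 minus control line 1 gave -0.27 (SE 0.16). Replicate 2 over replicate 1 was 0.878, 1.11, 0.775 and 1.04 in the 4 lines (log2 difference -0.09, SE 0.09, limma adjusted p 0.527).

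PRSS23 overlaps FZD4, a Wnt receptor gene, in the annotation, as well as PRSS23-AS1 and the pseudogenes MOB4P2, OR7E13P and OR7E2P. Strand use in counting is not given in the sources used here, so reads of PRSS23 and of these genes may be mixed. FZD4 was at 25.9 to 46.8 normalized counts and was not called between the arms (log2 fold change -0.41, limma adjusted p 0.632). The 5 tested genes on each side of PRSS23 had a median of -0.14 between KO-labelled and control libraries, from -0.76 to 0.32, with 0 called. Between the arms 0.235% of all tested genes were called. Against the controls, 1 of these 10 was lower in KO-labelled line 1, beside 3.18% of all genes called as lower. In KO-labelled line 2, 0 were called, beside 11.2%.

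HTRA1, the matrix-degrading protease, was lowest in KO-labelled line 1. HTRA1 (Entrez gene 5654, 10:122461553-122514907) had 1051 and 974.5 normalized counts in control line 1, next to 719 and 1277 in control line 2. The counts were 642 and 606 in KO-labelled line 1 and 683 and 893 in KO-labelled line 2. Both libraries of KO-labelled line 1 were below all others, while KO-labelled line 2 overlapped control line 2. The libraries of KO-labelled line 1 did not overlap those of the controls for PLAU, PLAT and HTRA1 of the 5 tested members other than PRSS23, as for 33.9% of all genes. For PLAU this rests on 17 and 10 reads in KO-labelled line 1, against 16 to 23 in the control libraries. By line, the means were 1013 ± 54.0 and 998 ± 394 in the control lines, 788 ± 149 in KO-labelled line 2 and 624 ± 25.6 in KO-labelled line 1 (SD, n = 2 each).

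Over the arms HTRA1 averaged 1005 ± 230 (control) and 706 ± 129 (KO-labelled) normalized counts (SD, n = 4 per arm), with a log2 fold change of -0.50 (SE 0.24, 95% interval -1.03 to 0.04, limma adjusted p 0.476). KO-labelled line 1 differed from both control lines by -0.66 (SE 0.22, limma adjusted p 0.107), and KO-labelled line 2 by -0.33 (SE 0.22, adjusted p 0.375). The first of these was called with the replicate block (adjusted p 0.0127), with DESeq2 on the recovered reads (0.0317) and without replicate 1 of control line 2 (-0.87, adjusted p 0.0179). The KO-labelled lines themselves were not called as different (0.32, SE 0.25, limma adjusted p 0.466).

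Across the members, the comparison of KO-labelled with control libraries called 0 of the 5 tested genes other than PRSS23, where 0.235% of all tested genes were called. In KO-labelled line 1 against both control lines, 1 of these 5 was called (PLAT, higher), beside 7.01% of all genes and 3.82% called as higher, and the replicate block called PLAT and HTRA1, beside 24.4%. KO-labelled line 2 had 0 of 5, beside 11.2%, and the block called PLAT as higher and PLAUR as lower, beside 27.4%. Of the same 5 members, 0 were called between the control lines (2.13% of all genes) and 0 between the KO-labelled lines (6.94%). The block called PLAT and PLAUR in the former (12.5% of all genes) and PLAT in the latter (24.5%). With limma and no adjustment, 2178 and 3394 genes (15.5% and 24.2% of those tested) had a p under 0.05 in these comparisons. PLAT was the single member among them in each. The median log2 fold change of the 5 members other than PRSS23 was -0.34 between the arms, beside 0.00 over all genes.

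The comparison of each line and of the replicates is plotted side by side for the 5 tested members other than PRSS23.

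**Figure D2:**
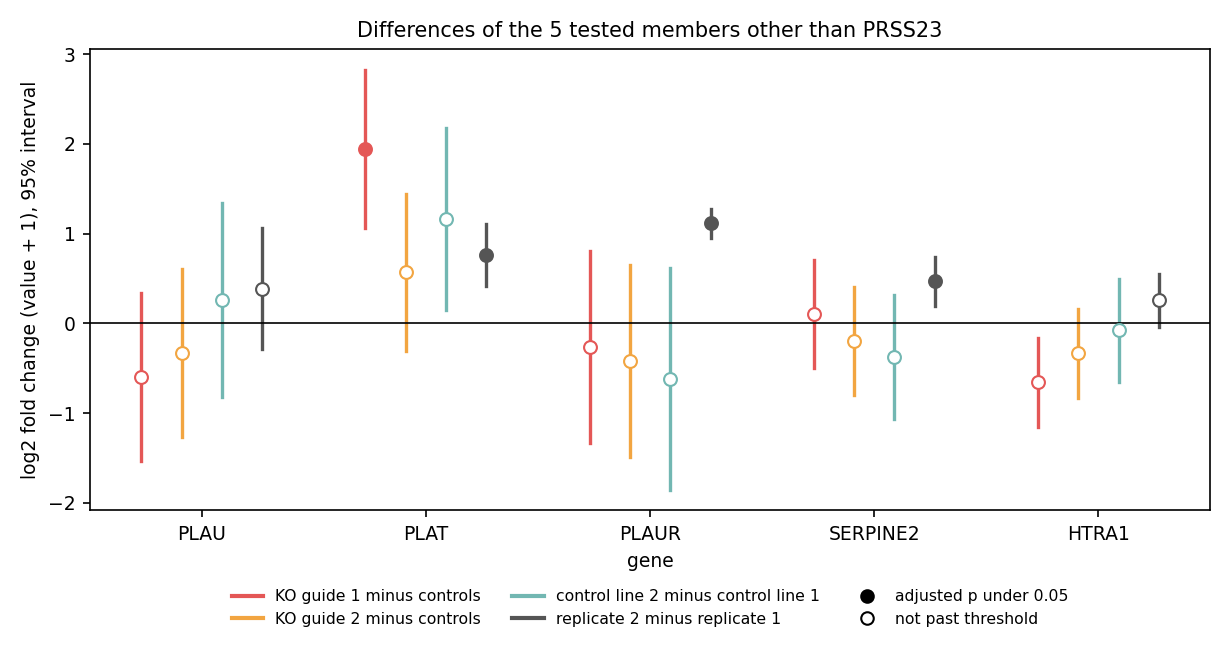
Log2 differences with 95% intervals for PLAU, PLAT, PLAUR, SERPINE2 and HTRA1 in KO-labelled line 1 minus the controls, KO-labelled line 2 minus the controls, control line 2 minus control line 1 and replicate 2 minus replicate 1, with filled points for an adjusted p under 0.05. PLAT is filled for KO-labelled line 1 (1.94) and for the replicates (0.76), PLAUR (1.11) and SERPINE2 (0.47) are filled for the replicates alone, and PLAU and HTRA1 are open throughout.

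Between the replicates, 3 of the 6 tested members were called and all 3 were higher in replicate 2, beside 17.6% of all genes called and 8.97% called as higher. PLAT was the third, with a rise of 0.76 (SE 0.16, limma adjusted p 0.00881) and ratios of 2.03, 1.37, 2.64 and 1.12 in control lines 1 and 2 and KO-labelled lines 1 and 2. Its replicate libraries overlapped, as the lines lay far apart, whereas those of PLAUR and SERPINE2 did not, as was the case for 7.17% of all genes. PLAU (0.38, limma adjusted p 0.407) and HTRA1 (0.26, adjusted p 0.204) were not called, and their ratios lay on both sides of 1. PLAUR, PLAT and SERPINE2 were higher in replicate 2 in all 4 lines, as were 20.2% of all tested genes. The libraries of replicate 2 were also the shallower ones and held more mitochondrial reads in 3 of 4 lines. The part of these in the result was not tested.

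**Figure D3:**
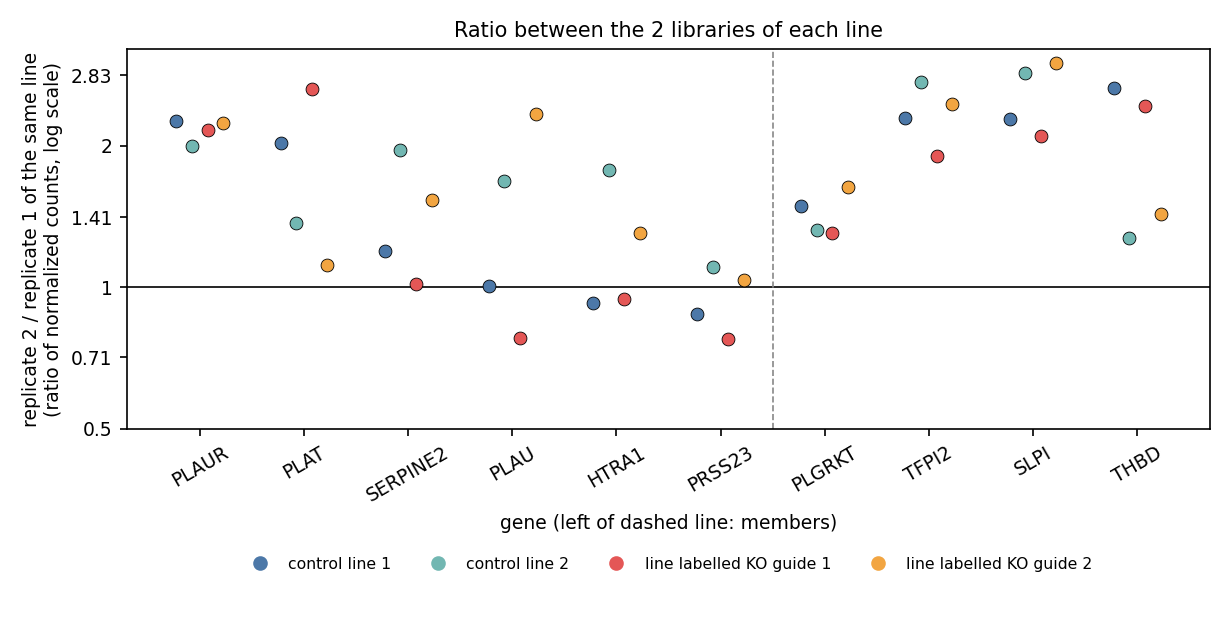
Ratio of the normalized count in replicate 2 to that in replicate 1 for 6 members and 4 genes of the other lists. The axis is a log axis, with 1 point per line. The 4 other genes were taken from those called as higher in replicate 2, so their high ratios follow from that choice. The 4 points of PLAUR lie between 2.00 and 2.26, those of PLAT between 1.12 and 2.64, and those of PRSS23 on both sides of 1, between 0.775 and 1.11.

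The remaining genes of the plasminogen system were read from a list of 16, of which 11 passed the filter. PLG itself, the substrate of both activators, was listed at 0.919 in replicate 1 of control line 1, at 1.03 in replicate 1 of KO-labelled line 2 and at 0 elsewhere. The plasmin inhibitor SERPINF2, the inhibitor SERPINA5, the fibrinolysis inhibitor CPB2 and the plasminogen-like LPA also failed the filter, with highest values of 5.19, 6.44, 0.860 and 3.11 normalized counts. Between KO-labelled and control libraries 0 of the 11 were called, where 0.235% of all tested genes were called (median -0.25, beside 0.00 over all genes).

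In KO-labelled line 2, 4 of the 11 fell against the control lines and 0 rose, where 6.67% of all genes fell. LRP1, the endocytic receptor that clears activator and serpin complexes, had 6508 and 6853, 4770 and 6636, 5294 and 5617, and 2905 and 2787 normalized counts in control lines 1 and 2 and KO-labelled lines 1 and 2. Both libraries of KO-labelled line 2 were below all others, and LRP1 fell by 1.11 on the log2 scale in that line (SE 0.14, limma adjusted p 0.00284).

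The same line had the lowest libraries for the other 3. Its libraries did not overlap those of the controls for 29.6% of all tested genes, in either direction. LRP1 and these 3 are described because they were called as lower there, so their low position is no separate result. MRC2, the urokinase receptor-associated collagen receptor, had normalized counts of 4540 and 4233, 4016 and 5456, 3984 and 4468, and 2020 and 2209 in the same order of lines. It fell by 1.10 on the log2 scale in KO-labelled line 2 (SE 0.14, limma adjusted p 0.00296). VLDLR, a second endocytic receptor for these complexes, was at 1599 to 1933 in the control libraries, 1488 and 1420 in KO-labelled line 1 and 1033 and 1185 in KO-labelled line 2, where it fell by 0.72 (SE 0.12, limma adjusted p 0.00693). IGF2R, which binds mannose 6-phosphate and the urokinase receptor, was at 4573 to 6335 in control, 6473 and 6872 in KO-labelled line 1 and 4043 and 3401 in KO-labelled line 2. It fell by 0.57 there (SE 0.15, limma adjusted p 0.0466), a call that was lost without any one library other than replicate 2 of control line 2 (adjusted p 0.0651 to 0.190), with no filter (0.0654), with equal totals (0.0728) and with edgeR on the recovered reads (0.0518).

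KO-labelled line 1 had 0 of the 11 called without the replicate block and 4 lower with it, namely PLGRKT (limma adjusted p 0.00871), HABP2 (0.0225), LRPAP1 (0.0233) and VLDLR (0.0327). Of all genes 7.01% were called without and 24.4% with the block. Compared directly, the KO-labelled lines differed in LRP1 (-0.94, limma adjusted p 0.0163), MRC2 (-0.998, adjusted p 0.0132) and IGF2R (-0.85, adjusted p 0.0290), all lower in line 2, where 4.53% of all genes were called as lower. With the block VLDLR (-0.39, limma adjusted p 0.0258) was called as well. Without replicate 1 or replicate 2 of KO-labelled line 1 the calls were lost for LRP1 (0.0904 and 0.144), MRC2 (0.0670 and 0.129) and IGF2R (0.125 and 0.193). LRP1 (0.0607) and IGF2R (0.110) also lost it without replicate 2 of KO-labelled line 2, and IGF2R without either replicate of control line 1 (0.0582 and 0.0577).

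**Figure D4:**
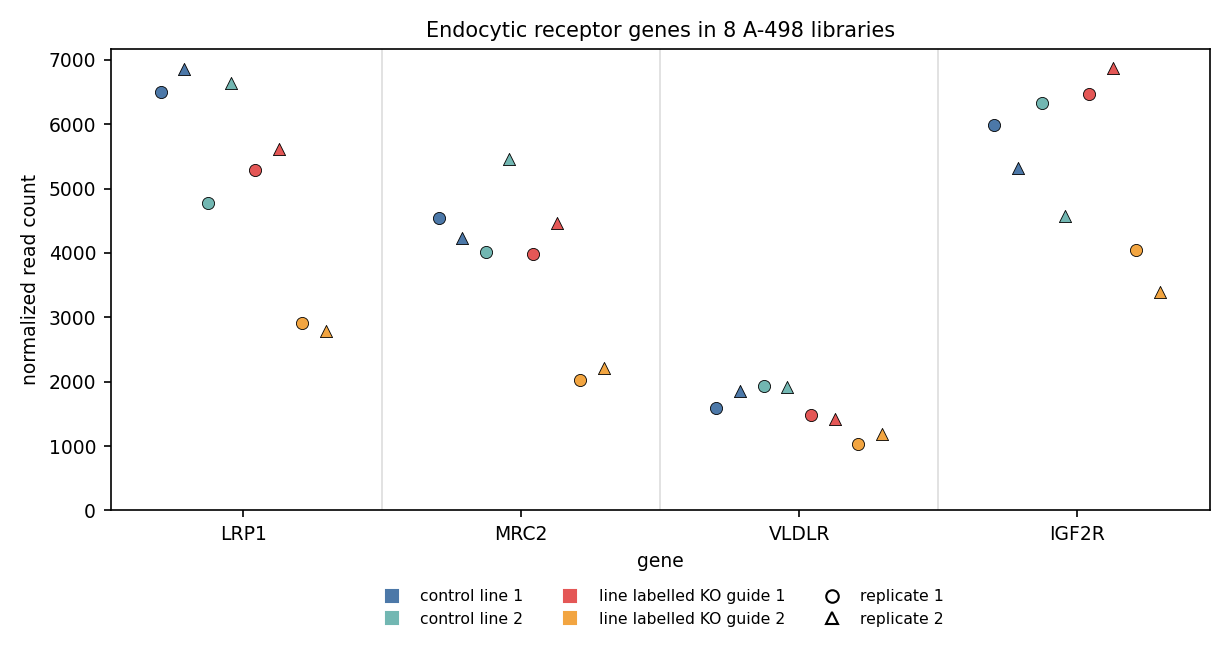
Normalized counts of LRP1, MRC2, VLDLR and IGF2R in the 8 libraries, by line and replicate. The 2 libraries of KO-labelled line 2 are the lowest for each of the 4 genes (2020 and 2209 for MRC2, against 3984 to 5456 in the other 6). The 4 genes are those of the plasminogen list called as lower in that line against the controls.

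HABP2, a protease that can activate urokinase, was called as higher in KO-labelled line 2 than in KO-labelled line 1 at low counts. It had 4.60 and 2.08 normalized counts in control line 1, 6.88 and 7.93 in control line 2, 0 and 1.04 in KO-labelled line 1 and 19.7 and 13.3 in KO-labelled line 2. The limma adjusted p was 0.0157, and it rose to between 0.0507 and 0.0920 without any one library of these lines. The plasminogen receptor PLGRKT had 571 and 852, 487 and 646, 393 and 512, and 412 and 674 normalized counts in control lines 1 and 2 and KO-labelled lines 1 and 2. It rose in replicate 2 by 0.52 (SE 0.09, limma adjusted p 0.00411). No other gene of the 11 was called between replicates, where 17.6% of all genes were called and 8.97% as higher. The plasminogen-binding proteins ANXA2 (23708 to 51874 normalized counts), S100A10 (4853 to 8716) and ENO1 (29614 to 42155), the LRP1 chaperone LRPAP1 (1426 to 2112) and vitronectin, VTN (20.4 to 48.5), were not called in any of the comparisons without the block. With the block, LRPAP1 was lower in both KO-labelled lines than in the controls (-0.35 in each, limma adjusted p 0.0233 and 0.0209), and ANXA2 and S100A10 were higher in control line 2 than in control line 1 (0.76 and 0.49, limma adjusted p 0.00424 and 0.0302).

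Of 20 other serpins, 9 were tested. Between the arms 1 was higher and 0 were lower, in KO-labelled line 1 there were 1 and 1, in KO-labelled line 2 there were 1 and 0 (1 and 3 with the block), and between replicates 2 and 0. The control lines differed in 0 (2 lower with the block) and the KO-labelled lines in 0. Of all genes, 0.235% were called between the arms, 7.01% in KO-labelled line 1, 11.2% in KO-labelled line 2 (27.4% with the block), 17.6% between replicates, 2.13% in control line 2 against control line 1 (12.5%) and 6.94% in KO-labelled line 2 against line 1. SERPINB1, an intracellular inhibitor of neutrophil proteases, had normalized counts of 464 and 473, 432 and 482, 920 and 909, and 789 and 729 in control lines 1 and 2 and KO-labelled lines 1 and 2. All 4 KO-labelled libraries lay above all control libraries, and the log2 fold change was 0.85 (SE 0.14, limma adjusted p 0.0461). The arms did not overlap for 10.6% of all tested genes, in either direction. SERPINB1 is named because it was called, so its separation is no separate result. Its call was lost with the replicate block (0.0793), with equal totals (0.0614), with line means (0.553) and without any one library other than replicate 2 of KO-labelled line 2 (0.0605 to 0.239). SERPINB1 was also called in KO-labelled line 1 (0.98, limma adjusted p 0.00247) and KO-labelled line 2 (0.71, adjusted p 0.00684) against the same controls. SERPINH1, a collagen chaperone without inhibitor activity, fell in KO-labelled line 1 by 0.82 (limma adjusted p 0.0253), to 6273 and 6454 from 8726 to 14674 in control. That call was lost without either replicate of control line 1 (0.0510 and 0.0892), replicate 2 of control line 2 (0.0579) or either replicate of KO-labelled line 1 (0.184 and 0.174).

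Of 30 other secreted or cell surface serine proteases, 12 were tested and 0 were called between the arms, beside 0.235% of all genes. In KO-labelled line 1 there was 1 higher and 0 lower (3 and 1 with the block), and in KO-labelled line 2 there were 1 and 2 (2 and 3). Control line 2 against control line 1 gave 2 and 0 (3 and 2), KO-labelled line 2 against line 1 gave 0 and 1 (1 and 4), and replicate 2 against replicate 1 gave 1 and 0. The shares of all genes called in these comparisons were 7.01% (24.4% with the block), 11.2% (27.4%), 2.13% (12.5%), 6.94% (24.5%) and 17.6%. PCSK5, a proprotein convertase, had normalized counts of 1144 and 1002 in control line 1, 3344 and 3116 in control line 2, 6563 and 6251 in KO-labelled line 1 and 2983 and 2531 in KO-labelled line 2. Replicates lay close together and lines lay apart, with control line 2 above control line 1 by 1.59 (limma adjusted p 0.000975), KO-labelled line 1 above both controls by 1.78 (adjusted p 0.000211) and KO-labelled line 2 below KO-labelled line 1 (-1.22, adjusted p 0.00344). The order of the lines was that of PLAT, lowest in control line 1 and highest in KO-labelled line 1. PRSS12 (-0.59, limma adjusted p 0.0319) and the convertase FURIN (-0.57, adjusted p 0.0437) fell in KO-labelled line 2. PRSS12 lost its call without any one library other than replicate 2 of control line 2 (0.0544 to 0.134). FURIN lost it with equal totals (0.0728), with no filter (0.0549) and without any one library other than replicate 2 of control line 2 or replicate 1 of KO-labelled line 2 (0.0721 to 0.207).

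The last list held 17 other protease inhibitors and protease-activated receptors, with 11 tested and 0 called between the arms, beside 0.235% of all genes. Higher and lower calls were 1 and 0 in KO-labelled line 1 (3 and 4 with the block), 2 and 0 in KO-labelled line 2 (4 and 3), 1 and 1 in control line 2 against control line 1 (3 and 1) and 2 and 1 in KO-labelled line 2 against line 1 (3 and 2). Of all genes 7.01% (24.4% with the block), 11.2% (27.4%), 2.13% (12.5%) and 6.94% (24.5%) were called there. SPINT2, an inhibitor of hepatocyte growth factor activator, was at 20.4 to 39.5 normalized counts in control, 73.6 and 80.9 in KO-labelled line 1 and 134 and 103 in KO-labelled line 2. It rose in KO-labelled line 2 by 1.90 (limma adjusted p 0.00456) and in KO-labelled line 1 by 1.30 (adjusted p 0.0302). The latter call was lost with no filter (0.0512) and without either replicate of control line 1 (0.0603 and 0.0966), replicate 2 of control line 2 (0.0537) or either replicate of KO-labelled line 1 (0.170 and 0.213).

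F2RL1, the receptor PAR2 that trypsin-like proteases activate, was at 51.5 and 47.8 normalized counts in control line 1, 105 and 168 in control line 2, 51.7 and 52.9 in KO-labelled line 1 and 167 and 157 in KO-labelled line 2. It was higher in KO-labelled line 2 than in the controls (0.98, limma adjusted p 0.0242) and than in KO-labelled line 1 (1.61, adjusted p 0.0113), and higher in control line 2 than in control line 1 (1.40, adjusted p 0.0346). The first was lost without either replicate of control line 1 (0.0638 and 0.0723) or of KO-labelled line 2 (0.0968 and 0.0789), and the second without either replicate of KO-labelled line 1 (0.0742 and 0.0995). The third was lost with no filter (0.0528), without either replicate of control line 1 (0.167 and 0.244), without replicate 2 of control line 2 (0.173) and without either replicate of KO-labelled line 1 (0.0750 and 0.0749).

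PROCR, the protein C receptor, was higher in KO-labelled line 2 than in KO-labelled line 1 (1.39, limma adjusted p 0.0226), at 2886 and 4504 against 1350 and 1405 normalized counts. That was lost without either replicate of KO-labelled line 1 (0.120 and 0.146) or replicate 2 of KO-labelled line 2 (0.0885). TFPI, an inhibitor of the tissue factor pathway, was lower there (-1.26, limma adjusted p 0.0324), at 2239 and 3388 against 6326 and 6891. Its call was lost without either replicate of control line 1 (0.0617 and 0.0610) or of KO-labelled line 1 (0.131 and 0.200), and without replicate 1 of KO-labelled line 2 (0.0816). Thrombomodulin, THBD, was lower in control line 2 than in control line 1 (-2.44, limma adjusted p 0.0449), at 180 and 229 against 679 and 1803. This was lost with no filter (0.0564) and without any one library of these lines (0.0602 to 0.280) or of KO-labelled line 1 (0.0536 and 0.0542).

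Between the replicates, 7 of the 11 genes of this list were called as higher in replicate 2 and 0 as lower, where 8.97% of all genes were called as higher, with a list median of 0.45 beside 0.00 over all genes. TFPI2, an inhibitor of plasmin and trypsin, rose from 2869 to 6563, from 2021 to 5536, from 4710 to 8951 and from 5550 to 13599 normalized counts in control lines 1 and 2 and KO-labelled lines 1 and 2. The rise of 1.22 (SE 0.09, limma adjusted p 3.29e-05) was close in size to that of PLAUR (1.11). SLPI, an inhibitor of leukocyte elastase, rose by 1.33 (limma adjusted p 0.000238) and THBD by 0.89 (adjusted p 0.00425). PRSS23 and HTRA1 were not called in this comparison.

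Correlations describe how members ran together over the 8 libraries, which come from 4 lines and share replicate numbers. On the log2 scale Pearson's r was highest for PLAU with HTRA1 (0.840), PLAUR with SERPINE2 (0.774) and PRSS23 with HTRA1 (0.698), and lowest for PLAT with PRSS23 (-0.678) and PLAT with HTRA1 (-0.584). PLAU held 9 to 23 reads per library, so its r also carries counting error. PRSS23 was chosen by these same values, so nothing is read from its r with other genes. Among 11232 other genes with a mean of at least 50 normalized counts, the 3 closest to PLAT were WSCD1 (0.990), VEZT (0.964) and TNFRSF10A (0.961). WSCD1 followed it at a lower level, from 35.9 in replicate 1 of control line 1 to 191 in replicate 2 of KO-labelled line 1. PLAUR was closest to FAM76A (0.974), TMX1 (0.971) and AMPD3 (0.952), and SERPINE2 to DNHD1 (0.965), CTBS (0.928) and MUC12 (0.928).

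PRSS23, chosen by the same values, had close patterns in H2AZ2 (0.967) and TMEM101 (0.965), and nothing is read from them. HTRA1 was closest to APOL1 (0.976), SRPX (0.960) and C1QL1 (0.958), and the weakly expressed PLAU to NEIL3 (0.975), EXOSC9 (0.956) and MTX2 (0.953). With 8 libraries and 11232 genes searched, high values of r are found for most patterns.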

How the data were processed

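The deposited table holds 1 column per library of a normalized signal on a linear scale, here called normalized counts. The authors trimmed with fastp 0.23.2, aligned with HISAT2 2.2.1 to hg38 (GRCh38), counted with featureCounts 2.0.1 and scaled with DESeq2 2.11.40.8, where the submitters' processing notes name the tools without their order. The annotation and the use of strand are not given in the sources used here. Whole reads were recovered from the deposited signal, since 100% of its values were whole multiples of 1 value per library (largest relative deviation 8.45e-10, tolerance 1e-06).

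log2(value + 1) was tested with limma 3.58.1 (R 4.3.3), a scale on which the change of low genes is understated. Genes had to reach a value of 10 in 2 or more libraries, which 14040 did, while 7487 of 28395 were at 0 throughout. KO-labelled and control libraries were compared with duplicateCorrelation by line (0.33), single lines in 1 model with a mean per line, and replicates with the line as a term. Benjamini-Hochberg adjustment ran over all 14040 genes, and an adjusted p under 0.05 is a call. Alternatives were pseudocounts, filter, scaling (equal totals, TMM), edgeR 4.0.16 and DESeq2 1.42.0 on the recovered reads, the replicate block, line means, a separate mean per line and leaving out each library. Where a line is left with 1 library, that library is assumed to vary like the others. The scripts were tested on simulated data.

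Replicate numbers come from the sample titles. Differences between replicate 2 and replicate 1 correlated at 0.285 to 0.501 in all 6 pairs of lines, over the limit of 0.1, so the numbers were taken as pairing the libraries. Blocked values stand beside results they change. No line had 1 library deposited repeatedly (r between its replicates 0.978 to 0.987, chi-square per degree of freedom 18.8 to 72.3).

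Symbols were found for 27745 identifiers and not for 650. Coordinates and promoters are those of RefSeq for GRCh38.p14. Levels are compared between genes per kb of exon. The 7 members, ANXA4 and every gene of the plasminogen list are named, and from the other 3 lists the called genes with a mean of at least 50, up to the 3 largest rises and 3 largest falls per comparison. Some items that these rules would name are not reported here, and counts of the plasminogen list leave out 1 gene. The members, lists and comparisons were chosen with earlier results of these data known. Reads have no molecular identifiers, so limits from counts cover counting error only.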

Additional observations from a re-analysis of the deposited data

Results flagged for a closer look

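Single libraries stood far from the other 3 of their arm in 7 of 60 groups of 4 checked, by a gap to the nearest library that was large for the range of the group. Chance gives this in about 1 in 20 groups of independent, normally distributed values. Libraries of the same line are not independent, so no excess is read from the count. Among the members these were PLAU in replicate 2 of control line 2 (26.1 normalized counts), SERPINE2 in replicate 1 of KO-labelled line 2 (4040) and PRSS23 in replicate 1 of KO-labelled line 1 (1743). The others were ENO1 and LRP1 in replicate 1 of control line 2 (41536 and 4770), SERPINH1 in replicate 2 of KO-labelled line 2 (9438) and TFPI in replicate 2 of control line 2 (6942).

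A direct limma test of KO-labelled line 2 minus KO-labelled line 1 called 8 genes from the lists without the replicate block. These 8 are given because they were called in this comparison, as were 6.94% of all tested genes. Of the 5 tested members other than PRSS23, 0 were called, and the 8 are not set against this 0. The log2 differences were -0.94 for LRP1, -0.998 for MRC2, -0.85 for IGF2R, 3.59 for HABP2, 1.61 for F2RL1, 1.39 for PROCR, -1.26 for TFPI and -1.22 for PCSK5. The value for HABP2 depends on the pseudocount, since KO-labelled line 1 held 0 and 1.04 normalized counts.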

How the results depend on the processing

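The number of called genes moved more than the values of the members. Between KO-labelled and control libraries 33 genes were called, against 71 with no filter, 186 with edgeR, 850 with DESeq2, 0 with line means and 1474 with a separate mean per line, and 7 to 39 with 1 library left out. For KO-labelled line 1 there were 984 (148 to 1312), for KO-labelled line 2 1573 (813 to 1363), for control line 2 against control line 1 299 (43 to 410), for KO-labelled line 2 against line 1 975 (87 to 1003) and between replicates 2470 (706 to 2274). With the replicate block, which follows the pairing of the libraries by number, these were 3432, 3851, 1752 and 3442 for the 4 comparisons of lines and 37 between the arms. Between the control lines 183 were called with no filter and 655 with DESeq2. Of the members tested, a separate mean per line called 1 between the arms, where 0 were called otherwise. In KO-labelled line 1, where 1 was called, DESeq2 and the block each called 2 and leaving out a library gave 0 to 2. The block called 2 in KO-labelled line 2, 2 in control line 2 against control line 1 and 1 in KO-labelled line 2 against line 1, where 0 were called otherwise, and the replicates gave 2 to 3 with 1 library left out. Directions turned in such fits alone, with log2 values of -0.28 to 0.11 for SERPINE2 between the arms. For KO-labelled line 1 they were -0.14 to 0.35 for SERPINE2 and -0.82 to 0.30 for PLAUR, and for KO-labelled line 2 -0.90 to 0.24 for PLAU, -1.001 to 0.16 for PLAUR and -0.51 to 0.11 for SERPINE2. Between the control lines the ranges were -0.094 to 0.62 for PLAU, -0.49 to 0.34 for HTRA1 and -0.86 to 0.11 for SERPINE2, and between the KO-labelled lines -0.74 to 0.42 for PLAUR, -0.31 to 0.83 for PLAU and -0.61 to 0.0057 for SERPINE2. Between replicates PRSS23 ran from -0.17 to 0.0051. The cause was not tested. Pseudocounts and TMM moved no call of a member. Depth limits PLAU and SERPINB2.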
